A study of Mus musculus with 7 samples.

Results

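The set described here is made of the genes that carried 3 or more m6A peaks in C2C12 mouse myoblasts. It was selected on the number of peaks per gene symbol in the C2C12 peak list, after peaks at the same position were collapsed, and it held 285 of 3970 genes (7.18%) and 1010 of 5433 peaks. The experiment was m6A MeRIP-Seq, in which fragments of polyA RNA are pulled down with an antibody against m6A and sequenced beside an unselected input. The C2C12 list came from 2 m6A IP libraries and 1 input library of the C2C12 line, and the muscle list used for comparison from 1 IP and 1 input library for each of 2 genotypes. The list holds 1 set of peaks and no height or value per library, so no spread between replicates could be given.

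The C2C12 libraries carried the genotype label Normal for the input and Knockout for both IPs, and the study lowered METTL3 in C2C12 cells in other experiments without saying that the cells of this list were so treated. Whether the IP libraries came from cells with less METTL3 could not be settled, and the cells are called C2C12 cells without a genotype. The labels describe growth in serum-rich medium followed by 2% horse serum for 3 days, and do not say from which of these states the RNA came. The muscle libraries came from C57BL/6 mice, either METTL3 cKO (Pax7CreERT2; METTL3 flox/flox) or CTL (Pax7CreERT2; METTL3 wt/wt), all given tamoxifen for 5 days and then cardiotoxin (CTX), and were named D2. The Cre is driven by Pax7, a gene of muscle stem cells, so deletion is limited to that lineage, while the source of the RNA is given as muscle and the cell type as muscle stem cell. The age of these mice and the number of animals behind each library were not given in the labels. The muscle list holds only peaks that its authors kept in a comparison of the genotypes, so absence from it is not absence of m6A.

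m6A is written onto messenger RNA by a complex built around METTL3 and METTL14, with WTAP, ZC3H13, RBM15 and others as partners, mostly within a short motif whose core reads GGAC. Reader proteins of the YTH family bind the mark and alter translation or decay of the transcript. In most mammalian cells the mark is dense in long internal exons and around the stop codon, and in muscle stem cells the methyltransferase has been tied to proliferation and differentiation.

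The number of peaks in a gene chose the members and is given as a description. Of the 285 genes, 205 had 3 peaks, 40 had 4, 24 had 5, 9 had 6, 5 had 7, 1 had 8 and 1 had 18. Just outside the limit stood 738 genes with 2 peaks, and 2947 genes had 1. The gene with 18 peaks was Ahnak, which encodes a giant scaffold protein of the cell cortex. Next came Myh9 with 8 peaks, the heavy chain of non-muscle myosin IIA, and then Abr, Spen, Kmt2d, Grk5 and Ankrd50 with 7 each. Peaks of members had a median length of 303 bp, against 281 bp in genes with 1 peak and 288 bp in genes with 2.

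Coding exons held 530 of the 1010 member peaks, or 52.5% (95% Wilson interval 49.4 to 55.5, counting error only). In genes with 1 or 2 peaks the share was 52.7%. The 3' UTR held 165 member peaks, or 16.3% (14.2 to 18.7), against 30.3% in genes with 1 peak and 23.4% in genes with 2. Counted by gene the order was reversed: 41.4% of members had a peak in the 3' UTR, against 30.3% and 38.8%. That share can rise with the number of peaks alone. Introns held 232 member peaks, or 23.0% (20.5 to 25.7), against 9.94% and 10.2%. The 5' UTR held 71 member peaks (7.03%), upstream sequence 10 and downstream sequence 2. Among genes with 5 or more peaks, intron peaks made up 46.4% and 3' UTR peaks 8.94%.

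**Figure D1:**
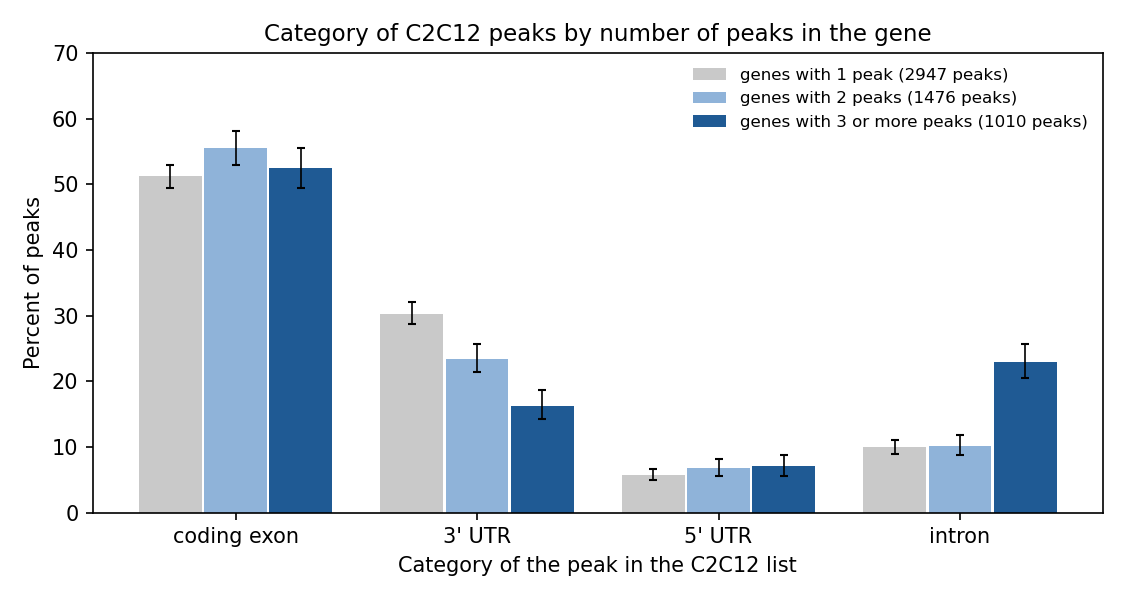
Percent of C2C12 peaks (vertical axis) in the 4 most frequent categories (horizontal axis) for genes with 1, 2, and 3 or more peaks; bars are shares of peaks and lines 95% Wilson intervals. The 3' UTR share falls from 30.3% to 16.3% and the intron share is 23.0% in genes with 3 or more peaks.

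The intron share came to a large part from few genes. In 26 members every peak lay in an intron, and these genes held 124 of the 232 intron peaks (53.4%). Without these 26, a choice made after seeing the data, coding exons held 59.8% of member peaks, the 3' UTR 18.6% and introns 12.2%. The lists did not always place a gene's peaks in the same category, and categories under other transcripts were not tested. For Ahnak all 18 peaks were called intron in C2C12, between 12573 and 28505 bp from the transcription start site (TSS), whereas 15 of its 16 muscle peaks were annotated as coding sequence. Macf1, a linker of actin and microtubules, had 3 intron peaks in C2C12 and 5 muscle peaks, all of them in coding sequence. Grk5, which encodes a kinase of G protein-coupled receptors, had 7 intron peaks in C2C12 and 1 muscle peak in the 5' UTR.

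By combination of categories, 71 members (24.9%) had peaks in coding exons alone and 67 (23.5%) in coding exons and the 3' UTR. Peaks fell in a single category in 107 members, in 2 categories in 136, in 3 in 40 and in 4 in 2. Map1a, which stabilises microtubules, Rai1, a chromatin-associated factor, and Cspg4, a cell surface proteoglycan, each had 6 peaks, all in coding exons. The 3' UTR held all peaks of 8 members, among them Igfbp5, a secreted binder of insulin-like growth factors, and Kremen1, a receptor for Dickkopf proteins. The 5' UTR held all 4 peaks of Zfp862 and all 3 of 5830417I10Rik, both transcribed pseudogenes in RefSeq, so that no coding sequence stands behind this call.

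Members differed widely in how far their peaks lay apart. The distance from the start of the first to the end of the last peak had a median of 8180 bp, with quartiles of 2896 and 27810 bp, while genes with 2 peaks had a median of 1877 bp. That distance can grow with the number of peaks, which chose the members, so the contrast with genes with 2 peaks is a description. Its median was 6585 bp in genes with 3 peaks, 12997 bp with 4 and 9786 bp with 5 or more. The distance was under 5 kb in 111 members and over 50 kb in 39. In 6 members it was longer than the GRCm38 gene itself, and 2 of these, Gm21319 and 0610010B08Rik, are among the 39, so in them it is not spread along a gene. Of 725 gaps between neighbouring peaks in members, 294 (40.6%) were under 500 bp and 133 (18.3%) over 10 kb. Genes with 2 peaks had 33.7% and 24.5% of their gaps in these ranges. Along the gene, 43.6% of the 980 member peaks that could be placed lay in the last of 4 equal stretches of the gene's length, against 54.9% in genes with 1 or 2 peaks, and 21.3% in the first stretch against 15.3%. Without members whose peaks are all in introns, these member shares were 47.9% and 20.2% of 865 placed peaks.

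Peaks stood close together in some members. Notch2, the receptor of the Notch pathway, had 2 coding and 3 3' UTR peaks within 3260 bp, from 132878 to 135874 bp downstream of the TSS. Fzd1, a Wnt receptor with its coding sequence in a single exon, had 4 coding peaks and 1 3' UTR peak in 3515 bp. Pcdh7, a protocadherin, had 5 peaks in 2968 bp near its 5' end although the gene is 417092 bp long. Plec, which encodes the cytoskeletal linker plectin, had the longest member peak, at 3460 bp, and its 6 peaks covered 9211 bp of a 10782 bp stretch.

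In other members the first and last peaks lay far apart. The 8 peaks of Myh9 spanned 80478 bp, with 1 in the 5' UTR at 7 bp from the TSS and the others, 5 in introns and 2 in coding exons, between 67375 and 80216 bp. Arhgef17 had 1 5' UTR and 3 coding peaks with midpoints up to 3198 bp from the TSS and 1 3' UTR peak at 58832 bp. Ep300, a histone acetyltransferase, had 1 upstream and 4 coding peaks across 64888 bp. Its relative Crebbp had 4 coding peaks across 95933 bp. Igf1r, the receptor for insulin-like growth factor, had its 3 peaks spread over 227903 bp.

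Several members with intron peaks alone had 1 or more peaks of over 1 kb inside a stretch of a few kilobases. Abr, which also had a 3' UTR peak, had 6 intron peaks between 20352 and 28645 bp from the TSS, of which those of 1038 and 1501 bp were the longest. Ctse had 6 peaks in 7945 bp, the longest of them 1897 bp, and 4930578N18Rik had 6 in 5335 bp. Galnt11, Gm7854, Fam73a, Rsrc1 and Snx6 had 5 each in stretches of 4660 to 8647 bp, and Ppat and Plcd3 had 4 each. Fam73a, listed under the newer symbol Miga1 in RefSeq, and Gm7854 lie on chromosomes 3 and 5, and the midpoints of their 5 peaks, counted from the first, differed by at most 120 bp. Such agreement within 250 bp was found in 1 of 75 pairs of intron-only members with as many peaks, a comparison made after seeing the data. Beyond that limit, the next pair with 5 peaks was Galnt11 and Gm7854. With 1 gene read opposite to transcription, their midpoints differed by at most 554 bp. The closest pair with 3 peaks, Camk2b and Mrps6, differed by at most 336 bp, over shorter stretches of 2367 and 2363 bp. The sequence under these peaks was not read, so whether it is shared or repeated between genes was not tested, and with it whether the reads behind these intron peaks belong to the genes named. Over all members 33 of 1010 peaks (3.27%) were longer than 1000 bp, against 1.64% in the whole list, and 17 of these lay in the 26 intron-only genes. None of Ctse, 4930578N18Rik, Galnt11, Gm7854, Fam73a, Rsrc1, Snx6, Ppat and Plcd3 was named in the muscle list under the listed symbol, nor Fam73a as Miga1. Absence was common, since 39.2% of all C2C12 genes were named there, and 5 of the 26 intron-only members were named, Grk5 with its 7 intron peaks among them. None of the muscle peaks of members was annotated as intron, so the list may not show peaks of this kind.

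**Figure D2:**
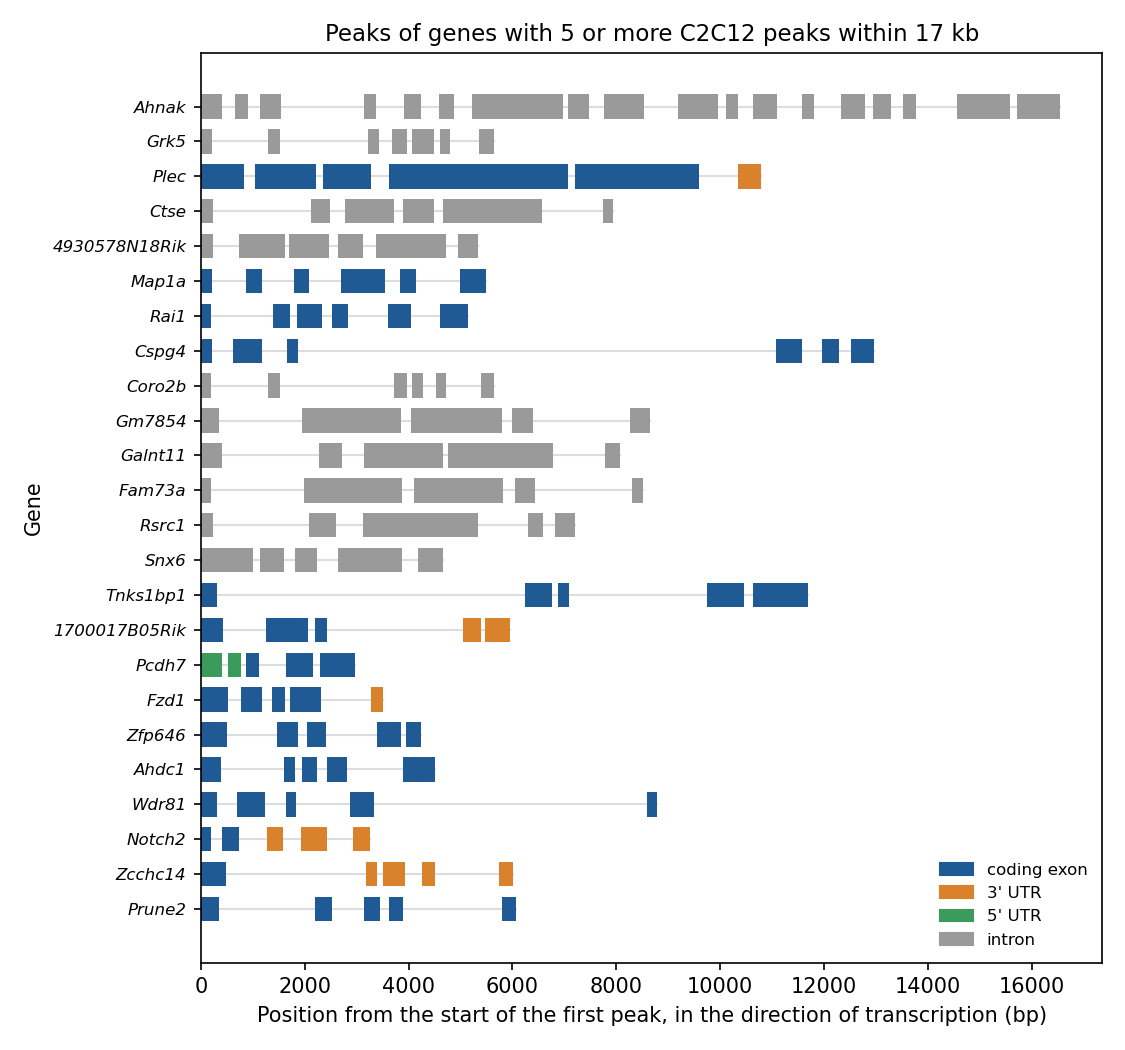
Peaks of the genes with 5 or more C2C12 peaks within 17 kb, drawn to scale from the start of the first peak in the direction of transcription (bp); each bar is a peak and its colour the category. Ahnak has 18 intron peaks in 16541 bp, Notch2 has 2 coding and 3 3' UTR peaks in 3260 bp, and Fam73a and Gm7854 show nearly the same spacing.

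By function, 96 members fell into at least 1 of 20 gene lists, and the share of listed C2C12 genes that were members is read beside the 7.18% of all genes. In the m6A machinery 5 of 12 genes were members. Zc3h13 had 4 coding peaks, and the complex partners Rbm15, Rbm15b and Wtap had 3 each. The reader Ythdf1 had 3 coding peaks within 1159 bp. Mettl3 and Mettl14 had no peak in the list, and Ythdf2 had 2.

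Of 20 cytoskeletal linkers and scaffolds 9 were members: Ahnak, Plec, Map1a, Macf1, Akap12, the intermediate filament genes Vim, Des and Nes, and the nuclear lamina gene Lmna. In the list of actomyosin and integrin adhesion 13 of 47 genes were members. They were led by Myh9, the actin-binding gene Coro2b with 6 peaks and Actb with 4. All 6 peaks of Coro2b, 5 of the 8 of Myh9 and all of Ahnak and Macf1 were called intron. Whether the reads of intron peaks belong to the genes named was not tested, here or in the lists below. Tns3, which couples integrins to actin, and Cald1, which binds actin and myosin, had 4 peaks each, of which 3 in Cald1 lay in introns. Cadherins and protocadherins gave 3 of 11, namely Pcdh7, Fat1 and Pcdhgc3. In the extracellular matrix list 6 of 47 were members, with Col6a3, a chain of collagen VI, at 6 peaks.

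Chromatin regulators gave 16 members of 97, among them the histone methyltransferase gene Kmt2d with 7 peaks, the remodeller gene Chd9 with 6, Ep300 with 5 and Crebbp with 4. Of the 6 peaks of Chd9, 5 lay in introns. Splicing and RNA-binding proteins gave 12 of 83, with Tnrc6c, Zc3h11a and Zc3h13 at 4 each. Zinc finger proteins gave 6 of 144, led by Zfp646 with 5 coding peaks, and 1 of the 6, Zfp862, is a pseudogene in RefSeq. This list left out the member Gm13247, which is Zfp981 in RefSeq. It also left out Gm14405, Gm14391 and 0610010B08Rik of a zinc finger cluster. Ubiquitin ligases and deubiquitinases gave 4 of 119, with 3 peaks each in Klhl26, Usp36, Rnf19a and Fbxl13, those of Fbxl13 all in introns. Solute carriers gave 3 of 67. The cell cycle list, which took in kinesin genes with a number after Kif but neither Kifc1 nor Kifc5b, gave 2 of 59: Espl1, the protease that lets sister chromatids separate, and Kif1b, a kinesin of organelle transport that is no cell cycle gene. All peaks of Kif1b lay in introns.

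Counts in the signalling lists were small. The Notch pathway gave 2 of 23 (8.70%), the receptor gene Notch2 with 5 peaks and Spen, a corepressor partner of RBPJ, with 7. Of other Notch genes Jag1 and Rbpj had 1 peak, and Maml1 and Notch1 had 2. Wnt and Hippo genes gave 5 of 33 (15.2%), with Fzd1 at 5 peaks and Fzd7, Bcl9l, Lats2 and Amotl2 at 3. Growth factor, insulin and mTOR genes gave 5 of 33 (15.2%), with Irs1, an adaptor of the insulin receptor, and Pik3c2a at 5. In Pik3c2a 4 of the 5 lay in introns. TGF-beta and BMP genes gave 1 of 32 (3.12%), the Smad repressor gene Ski with 4 peaks. Guidance genes gave 1 of 26 (3.85%), the ephrin gene Efnb2, and immediate-early and Kruppel-like genes 1 of 29 (3.45%), Klf4. No member came from the 10 myogenic transcription factors or the 7 LDL receptor family genes in the list.

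Of the C2C12 markers looked up, Des had 3 peaks, and Myod1, Cdh15 and Pax7 had 1 each. Myf5, Myog, Mef2c and Myh3 had none. No peak was listed for the leukocyte genes Ptprc, Cd68 and Adgre1, the endothelial genes Pecam1 and Cdh5, or the mature fibre genes Ttn, Ckm and Myh4. A peak is not a level of expression. In the muscle list Ptprc and Cdh5 had 1 peak each and Ttn 27, while Cd68, Adgre1, Pecam1, Ckm and Myh4 had none, and the part of other cell types in that list was not tested.

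Presence in the muscle list was not used to choose the members. By symbol, 155 of 285 members were named there, or 54.4% (95% Wilson interval 48.6 to 60.1), against 39.2% of all C2C12 genes. The share was 35.7% (34.0 to 37.5) in genes with 1 peak and 47.4% (43.8 to 51.0) in genes with 2. It was 53.7% in the 205 genes with 3 peaks, 55.0% in those with 4 and 57.5% in those with 5 or more. These 155 genes are 3.89% of the 3980 genes in the muscle list.

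**Figure D3:**
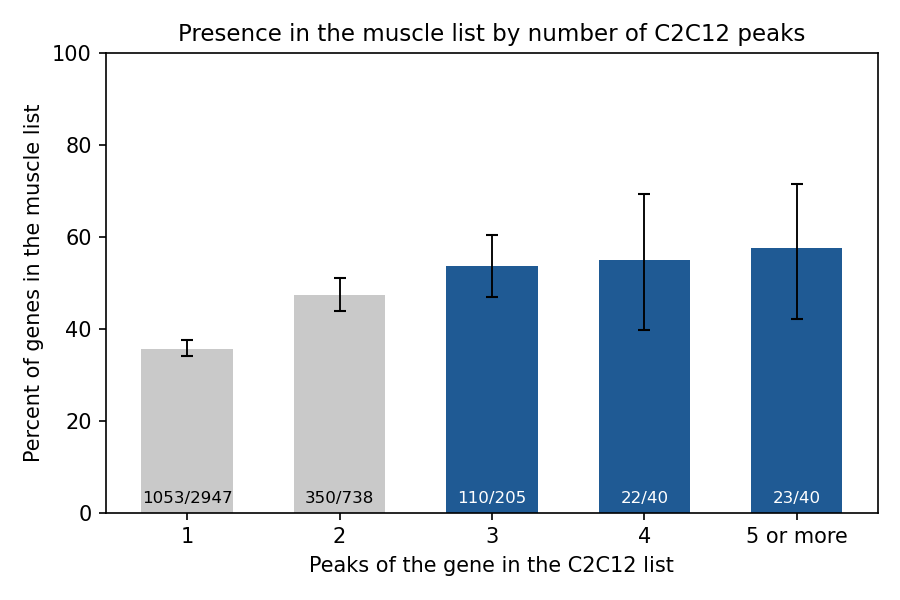
Percent of genes named in the muscle list (vertical axis) by number of C2C12 peaks (horizontal axis); bars are shares with genes present over all genes, and lines are 95% Wilson intervals. The share is 35.7% at 1 peak and 53.7% at 3 peaks.

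Members were longer genes, with a median GRCm38 length of 35899 bp against 21410 bp in genes with 1 or 2 peaks, and 110 of them (38.6%) were in the longest of 4 equal classes of listed genes. In the shortest class 53.1% of members were in the muscle list, against 30.9% of genes with 1 peak and 42.6% of genes with 2. In the longest class these shares were 60.0%, 43.0% and 53.9%. In the classes between, members and genes with 2 peaks were closer, at 51.0% and 46.3% in the shorter class and 49.3% and 46.7% in the longer one, and in all 4 classes the Wilson intervals of these groups overlapped. By category, members with coding peaks alone were in the muscle list in 62.0% of cases (50.3 to 72.4) and members with intron peaks alone in 19.2% (8.51 to 37.9, 5 of 26). Genes with 2 peaks showed the same order, with 54.6% and 10.3%. No muscle peak of a member was annotated as intron, so a C2C12 intron peak had no like class to recur in. How far this lowers the share of genes with intron peaks alone was not tested.

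The 155 shared members had 269 muscle peaks, 1.74 per gene, against 1.39 in genes with 1 or 2 C2C12 peaks. Coding sequence held 136 of these muscle peaks (50.6%) and the 3' UTR 101 (37.5%), while genes with 1 or 2 C2C12 peaks had 36.7% and 45.3%. Shared members with a C2C12 peak in the 3' UTR had a muscle peak there in 48 of 71 cases, and those without in 28 of 84. For coding exons these counts were 84 of 133 and 6 of 22. Under the listed symbols, Ahnak had 16 muscle peaks, Kmt2d had 6, and Prune2, Akap2 and Macf1 had 5 each. For Akap2, 4 muscle peaks also stood under its RefSeq symbol Pakap and are not in this count.

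The fold enrichment given by the authors is the ratio of IP to input in a peak. It is 1 value per peak, not tied to METTL3 cKO or CTL muscle, so it is not enrichment in CTL muscle alone. For the strongest muscle peak of each gene its median was 81.6 in members (order-statistic 95% interval 45.0 to 121), 36.0 in genes with 1 or 2 peaks, and 13.5 in muscle genes outside the C2C12 list. Over all peaks of the genes the medians were 26.1 in members and 19.6 in genes with 1 or 2 peaks, a smaller difference than for the strongest peak. Among members the value of the strongest peak of each gene ran from 1.41 in Actb to 1560 in Fat1, a giant protocadherin. The Fat1 peak, on chr8:45050478-45051897 (GRCm38), was the 3rd strongest of 5412. Tor4a followed at 1170, Rbm15 at 1040, Hps6 at 841 and Efnb2, a ligand in cell guidance, at 810. Notch2 had 1 muscle peak in its 3' UTR at chr3:98146168-98150241, 4074 bp long, with a fold enrichment of 329 and 19 listed GGAC positions.

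A GGAC position was listed in 215 of the 269 muscle peaks of members, or 79.9% (95% Wilson interval 74.7 to 84.3). The share was 76.8% in genes with 1 or 2 C2C12 peaks and 66.0% in muscle genes outside the C2C12 list. Median peak length differed in the same order, at 601, 481 and 301 bp, and members had 5.38 listed positions per kb of peak against 4.91 and 4.24. In 1-block peaks under 500 bp the shares were 57.3% in members and 55.3% in genes with 1 or 2 peaks.

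To show what a listed position looks like, the bases around it were read from the RefSeq promoter windows (GRCm38.p6) for members whose position fell inside one. The offset between the listed coordinate and the motif was chosen to give the most matches, and over the whole muscle list 151 of 168 positions in promoter windows then read GGAC on the gene's strand, a count that is no test of the list. As a separate description, GGAC occurs somewhere in 65.6% of all 300-base windows on the gene's strand and in 87.7% on either strand. Each line gives 30 bases 5' to 3' on the strand of the gene, with the motif in capitals.
Ep300, chr15:81586210-81586239, plus strand: atgagaaggaggaGGACagcgccgaggagg
Abl1, chr2:31688671-31688700, plus strand: aagccgggttcctGGACtgagccgggcatg
Ybx1, chr4:119294564-119294593, minus strand: caggtggtgagatGGACaacgatgcggacc
The Ep300 site lies in a muscle peak with a fold enrichment of 172. The site of Abl1, a tyrosine kinase gene, lies in a peak with a fold enrichment of 438, and that of Ybx1, which encodes a cold-shock RNA-binding protein, in a peak with 8.09. These 3 were picked after their values were seen from 9 sites in 6 members that a window covered, and do not stand for the rest: those not shown include a site of Ehbp1l1 in a peak with a fold enrichment of 2.26, followed by a G. The window over the Abl1 site is that of Gm13427.

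Some members have close copies or relatives, and how reads shared between them were placed was not tested, so their peaks are uncertain. Hspa1a and Hspa1b, both on chromosome 17, had 4 and 3 peaks. Kifc1 and Kifc5b, also on chromosome 17, had 3 each in stretches of 1897 and 1850 bp. The actin genes Actb and Actg1, which are less alike, had 4 and 3, and the tubulin genes Tubb4b and Tubb6 had 4 each. Gm14405, Gm14391 and 0610010B08Rik belong to a zinc finger cluster on chromosome 2. The peaks of Gm14405 lay at least 1159730 bp from the TSS of the gene they were assigned to. Tsix is transcribed across Xist from the other strand, so its 4 peaks may be counted for either.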

How the data were processed

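Peaks in C2C12 cells were those called by the authors, who per the labels aligned reads with TopHat to mm10 and called peaks with MACS2. The muscle list gives the fold enrichment as a ratio of IP to input, as deposited by the authors. Its columns of the authors' own comparison (a log2 difference between genotypes, its p-value and FDR) were not used. Peaks were collapsed by gene and position and counted per symbol, with lengths counted over both end bases. C2C12 positions lay inside the GRCm38 span of their gene in only 13.6% of member peaks, so distances to the TSS are given in place of coordinates. Gene lengths came from RefSeq GRCm38.p6, to which all 285 members were matched by transcript or symbol, 18 of them under another symbol. Intervals of shares, where given, are Wilson intervals, and no test was made across genes. Members and gene lists were chosen with earlier results of these data known. Named genes were those with 5 or more peaks, the leading 1 to 4 of each list, those named by the study, and those highest in muscle fold enrichment or muscle peaks, or with all peaks in 1 non-coding category; other genes, such as those with close copies, were named after their values were seen. Python 3.11.15, pandas 2.3.3, numpy 2.4.6, scipy 1.17.1 and matplotlib 3.10.9 were used. Some items that these rules select are not reported here. The counting functions were tested on simulated data.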

Additional observations from a re-analysis of the deposited data

How the results depend on the processing

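No paired analysis was possible because the lists hold no values per library, and for the same reason no replicate could be left out. Of 29 alternatives, 19 stayed within 1.5 times the count or within the interval of the reported value, and 10 did not. The 19 include a set of 197 genes in place of 285 when intron, upstream and downstream peaks were left out. With a threshold of 4 the set fell to 80 genes, the coding exon share to 46.3%, the 3' UTR share to 10.4%, and the median distance from first to last peak rose to 11736 bp. Without members whose peaks are all in introns, chosen after seeing the data, the coding exon share was 59.8%. When the weaker muscle peaks, below the median enrichment, were dropped, 43.9% of members were in the muscle list, against 26.3% of genes with 1 or 2 peaks, and 94.3% of member muscle peaks held a listed GGAC position, against 91.0%. Peaks in 1 block under 500 bp gave 57.3%. The median muscle fold enrichment was 38.8 when the median over the peaks of each gene was taken (27.1 in genes with 1 or 2 peaks) and 26.1 over all peaks (19.6). The cause of these shifts was not tested. Under each alternative for presence in the muscle list, members stood above genes with fewer peaks. The C2C12 list has no peak heights, depth is unknown, the muscle list holds peaks of a genotype comparison from 1 library per kind, and the state of the C2C12 cells is not settled by the labels.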
